A study of Mus musculus with 12 samples.

Results

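A list of 40 genes of adult neurogenesis and cell proliferation was followed in the hippocampus of *Fmr1* knockout (KO) and wild-type (WT) mice given Nutlin-3 or vehicle. The list was chosen by function. It holds genes of neural stem cells, intermediate progenitors, immature neurons and mature neurons, the genes that license DNA replication, mitotic genes, and cyclins and kinases of the G1 phase. All 40 genes passed the filter of more than 20 counts over all 12 libraries together, as did 22592 of 55421 genes. None of the 40 differed between genotypes or treatments past an adjusted *P*-value of 0.05. The levels of most of them lay within a narrow range over all 12 animals, and the genes that ranged most widely were *Neurog2*, *Igfbpl1*, *Eomes* and rarely read mitotic genes.

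In the adult dentate gyrus, radial glia-like stem cells that contain SOX2 and nestin divide and give rise to intermediate progenitors, which carry transcription factors such as TBR2 (the product of *Eomes*), NEUROG2 and NEUROD1. Their progeny become neuroblasts and immature granule neurons that contain doublecortin (*Dcx*) and SOX11, and later mature neurons that contain NeuN (*Rbfox3*). Division requires loading of the MCM helicase onto DNA in G1, DNA synthesis with PCNA, and then the cyclins, kinases and checkpoint proteins of mitosis. Nutlin-3 blocks the binding of the ubiquitin ligase MDM2 to p53.

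Vehicle was given to WT (WT-Veh) and KO (KO-Veh) mice and Nutlin-3 to others of each genotype (WT-Nut3 and KO-Nut3), with 3 male mice of C57BL/6 background per group. Injections were intraperitoneal at 2 months of age, and hippocampi were collected at 6 months. *Fmr1* lies on the X chromosome, so the KO males carry no intact copy, and the knockout is present in every cell of the animal. Poly(A) RNA of the whole hippocampus was sequenced, 1 library per animal, and libraries are named here by group and animal number. Between 17150820 and 20040482 reads fell on genes in a library, so that 3 counts, taken as the floor of detection, corresponded to 0.15 to 0.175 CPM (gene counts scaled to a common library size with TMM factors), a limit that covers counting error only. In bulk tissue, fewer cells of a type and less RNA per cell cannot be told apart.

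The libraries were first checked against their labels. *Fmr1*, the targeted gene, was at 79.5, 75.3 and 77.7 CPM in WT-Veh (RH2, RH5, RH15) and at 75.2, 74.0 and 78.3 CPM in WT-Nut3 (RH1, RH9, RH14). It was at 32.7, 32.5 and 37.3 CPM in KO-Veh (RH7, RH10, RH16) and at 30.6, 28.5 and 35.7 CPM in KO-Nut3 (RH6, RH8, RH13). All 6 KO libraries thus lay below all 6 WT libraries. Reads were still counted on the gene in KO, and the part of the gene they come from was not tested. Markers of dentate granule neurons and of CA pyramidal neurons, the principal cells of the hippocampus, were present in all 12 libraries, with no marker of either list at 0.

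Libraries stood apart in several ways, among them by their neuronal markers (KO-Nut3 RH6) and by choroid plexus markers (4 libraries). Ependyma and fibroblast markers, which set further libraries apart, are given below. In RH6 the summed level of 6 dentate granule markers, led by *Prox1*, was 324.7 CPM against 387 to 540.9 in the others, and that of 5 CA markers, led by *Cpne6*, was 655.5 CPM against 929.1 to 1070. Its 5 thalamus markers, led by *Rora*, summed to 238.9 CPM against 80.96 to 143.6 elsewhere. The same library was the lowest of the 12 for 8 of the 40 genes, among them *Neurod1*, *Neurod2*, *Rbfox3*, *Ccnd1*, *Ccnd2* and *Mki67*. It was the highest for 5, *Tubb3*, *Elavl4*, *Sox11*, *Eomes* and *Cdk1*, and its 8 immature neuron genes had the highest sum, 620.6 CPM against 501.2 to 589.5. Choroid plexus markers, 12 genes led by *Ttr*, summed to 4795 CPM in WT-Nut3 RH9, 3580 in KO-Nut3 RH6, 387.2 in KO-Nut3 RH8 and 5130 in KO-Nut3 RH13, and to 33.43 to 58.15 in the other 8 libraries. Some results are therefore given with and without RH6. Others, among them the values of *Ccnd1* and the interval of *Mki67* from all 12 libraries, are given with it only. The part of these tissues in the results was not tested.

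Per exon length (RPKM, the mean over 12 libraries), the 40 genes covered a wide range of levels. The neuronal cytoskeletal genes *Tubb3* and *Stmn1* led with 103 and 78.0 RPKM, followed by the neuronal transcription factor *Neurod2* at 65.7 and the nuclear RNA-binding protein *Rbfox3* at 49.2. *Sox2*, which stem cells share with astrocytes, came next at 21.1 RPKM, above 89.99% of all genes with an annotated length. The markers that are more particular to immature neurons were lower, with *Dcx* at 2.17 and *Sox11* at 2.60 RPKM. Mitotic genes closed the order, from *Ccnb2* at 0.712 and *Mki67* at 0.459 RPKM down to *Top2a* at 0.131, *Ccnb1* at 0.0795, *Cdk1* at 0.0593 and *Bub1* at 0.0271. *Eomes*, the marker of intermediate progenitors, was at 0.0971 RPKM, below all but 8.66% of the genes.

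**Figure D1:**
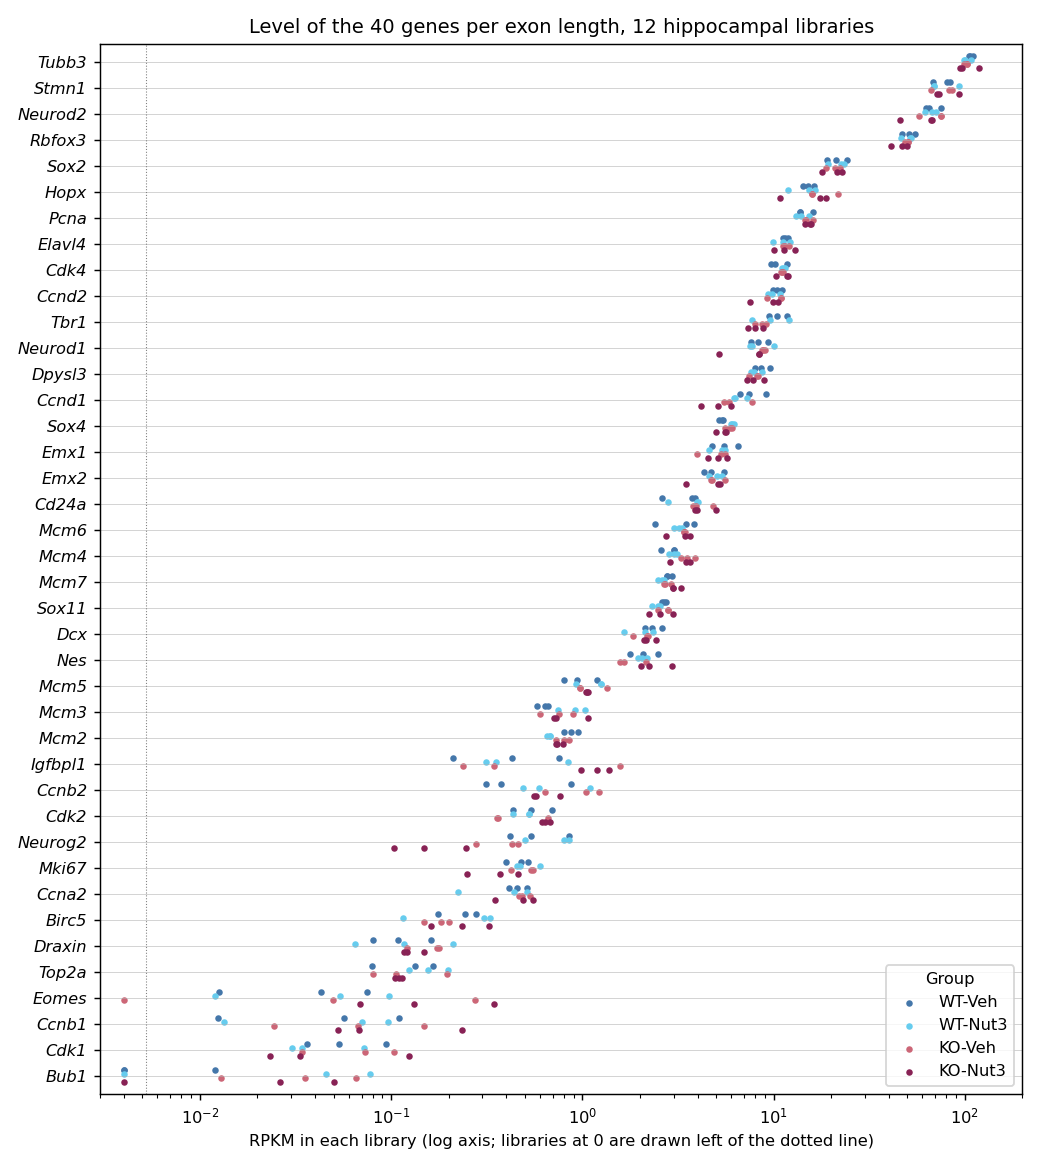
RPKM of the 40 genes (rows, ordered by the mean) in each of the 12 libraries (points, coloured by group) on a log axis, with libraries at 0 left of the dotted line. The order runs from *Tubb3* (mean 103 RPKM) to *Bub1* (0.0271), and the points of *Igfbpl1*, *Neurog2* and *Eomes* are spread over a wider range than those of *Mcm2*, *Cdk2* and *Ccna2*.

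The spread of the genes over the 12 animals followed their depth in part. The coefficient of variation (CV) of the CPM values was under 10% for 11 genes, between 10% and 20% for 15 and above 20% for 14. *Cdk4*, the kinase partner of D-type cyclins, had the smallest CV, 6.00%, where counting alone gives 3.89%. *Bub1*, a kinase of the spindle checkpoint, had 26 counts in all and a CV of 101%, where counting gives 67.9%. For the helicase subunit *Mcm2* the CV of 11.4% was close to the 10.1% of counting alone. In contrast, *Igfbpl1*, an insulin-like growth factor binding protein gene expressed in progenitors of the dentate gyrus, had a CV of 66.4% against 15.4% from counting, *Neurog2* 54.9% against 22.6%, and *Eomes* 111% against 36.9%.

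The promoters of the genes were searched for words known from cell cycle regulation, which the choice of the list did not use. RefSeq promoter sequences (GRCm38.p6) were matched by symbol for 32 of the 40 genes and not for *Ccnd1*, *Ccnd2*, *Ccna2*, *Mcm4*, *Dpysl3*, *Stmn1*, *Cd24a* and *Igfbpl1*. The 250 bases before the start were searched on both strands for CCAAT, the word bound by NF-Y, for TTTGAA, the core of the cell cycle homology region (CHR) known from late cell cycle genes, and for the E2F words TTTCCCGC, TTTCGCGC, TTTGCCGC and TTTGGCGC. At least 2 CCAAT words were found in 6 of 7 mitotic promoters (all but *Birc5*) and in 4 of 6 replication licensing promoters, against 10.5% of 27025 promoters, 1 per gene symbol. At least 2 CHR words were found in 3 of the 7 mitotic promoters (*Top2a*, *Mki67* and *Cdk1*), against 1.88% of all promoters. E2F words were found in *Mcm5*, *Mcm6* and *Mcm7*, 3 of 6 licensing promoters, against 1.91% of all. The words were not limited to proliferation genes. At least 2 CCAAT words were also found in *Sox4* (4 words), *Eomes* (2) and *Neurod2* (2), 1 of 5 immature neuron, 1 of 4 intermediate progenitor and 1 of 3 neuronal promoters, and at least 1 in 4 of the 5 immature neuron promoters, against 34.5% of all. A single E2F word was also found in *Cdk1*, *Cdk2* and *Hopx*, and a single CHR word in *Ccnb2*, *Mcm2*, *Sox11* and *Tbr1*, where 16.3% of all promoters hold at least 1. A match is a description of the sequence and not a measured binding site, and the genes printed were chosen after their matches were seen.

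Promoters of 2 mitotic and 2 licensing genes are shown to let the words be seen in place, as the 200 bases before the start, 5′ to 3′ on the strand of the gene. *Cdk1*, with 3 CCAAT, 2 CHR and 1 E2F word in its 250 bases, is not shown. In the first pair the capitals mark CCAAT (or ATTGG, the same word on the other strand) and TTTGAA (or TTCAAA), of which *Top2a* has 5 and 2 in this stretch and *Mki67* 3 and 2. In the second pair they mark CCAAT and the E2F words on either strand, of which *Mcm6* has 2 and 3 and *Mcm5* 2 and 2. In both *Mcm6* and *Mcm5* an E2F word on one strand overlaps another on the opposite strand, which gives 1 joined run of capitals.
Top2a (chr11:99024190-99024389, minus strand): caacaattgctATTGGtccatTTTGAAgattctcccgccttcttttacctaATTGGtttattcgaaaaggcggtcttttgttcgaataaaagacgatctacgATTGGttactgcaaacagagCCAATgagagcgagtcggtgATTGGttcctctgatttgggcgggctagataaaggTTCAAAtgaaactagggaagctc
Mki67 (chr7:135716380-135716579, minus strand): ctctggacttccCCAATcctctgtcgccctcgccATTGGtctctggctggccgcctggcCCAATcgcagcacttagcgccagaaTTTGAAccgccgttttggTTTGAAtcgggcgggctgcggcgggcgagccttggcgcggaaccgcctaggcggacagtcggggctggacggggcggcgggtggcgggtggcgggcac
Mcm6 (chr1:128359706-128359905, minus strand): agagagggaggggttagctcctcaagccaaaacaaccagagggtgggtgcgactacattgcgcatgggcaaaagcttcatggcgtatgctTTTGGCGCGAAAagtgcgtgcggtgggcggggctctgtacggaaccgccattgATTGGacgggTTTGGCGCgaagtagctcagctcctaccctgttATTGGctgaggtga
Mcm5 (chr8:75109309-75109508, plus strand): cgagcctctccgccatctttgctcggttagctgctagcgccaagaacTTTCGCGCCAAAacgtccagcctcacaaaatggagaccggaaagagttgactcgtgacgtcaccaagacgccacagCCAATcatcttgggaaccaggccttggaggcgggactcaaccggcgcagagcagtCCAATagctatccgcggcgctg

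Among the stem and radial glia-like genes, *Sox2*, a transcription factor of neural stem cells, was at 49.9, 39.2 and 43.6 CPM in WT-Veh, 47.8, 39.4 and 46.2 in WT-Nut3, 43.3, 38.4 and 45.7 in KO-Veh and 46.7, 36.9 and 44.3 in KO-Nut3. The 4 groups overlapped throughout, and the 95% interval of the fold between KO and WT over both treatments ran from 0.859 to 1.07. *Nes*, which encodes the intermediate filament nestin and is also made by blood vessels, was at 13.3, 16 and 11.4 CPM in WT-Veh and at 14, 12.6 and 13.2 in WT-Nut3. It was at 10.6, 10.1 and 13.8 CPM in KO-Veh and at 14.3, 19.0 and 13 in KO-Nut3, with the highest value of all in RH8. *Hopx*, a homeobox gene of quiescent stem cells and astrocytes, ranged from 16.4 to 32.9 CPM with its lowest value in KO-Nut3 RH6, and the homeobox genes *Emx1* and *Emx2* from 8.66 to 14.2 and from 10.5 to 16.6 CPM.

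Of the intermediate progenitor genes, *Neurod1*, a bHLH factor that continues in young granule neurons, was at 25.5, 20.8 and 22.6 CPM in WT-Veh, 20.4, 21.0 and 27.4 in WT-Nut3, 24.0, 24.6 and 23.6 in KO-Veh and 14.1, 22.8 and 22.9 in KO-Nut3. The KO-Nut3 libraries all lay below KO-Veh, by less than 1 CPM for RH8 and RH13 and by more for RH6, in which the dentate markers were low as well. *Eomes* was at 0.179, 0.0525 and 0.309 CPM in WT-Veh, 0.406, 0.0497 and 0.224 in WT-Nut3, 0.206, 0 and 1.14 in KO-Veh and 1.44, 0.286 and 0.549 in KO-Nut3. These are 0 to 26 counts per library, and only KO-Veh RH16 (20 counts) and KO-Nut3 RH6 (26 counts) had more than 10. *Draxin*, which encodes a secreted guidance protein, had 6 to 22 counts per library and its groups overlapped.

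The genes of immature neurons were among the steadiest. *Dcx*, a microtubule-binding protein of migrating neuroblasts, was at 29.3, 26.9 and 33.1 CPM in WT-Veh, 29.5, 21.0 and 26.7 in WT-Nut3, 27.9, 23.3 and 27.7 in KO-Veh and 30.6, 27.3 and 26.5 in KO-Nut3. Its group means of 29.8 ± 3.12, 25.7 ± 4.34, 26.3 ± 2.58 and 28.1 ± 2.19 CPM (SD, n = 3) came from ranges that overlapped between all pairs of groups. The 95% interval of the fold of *Dcx* was 0.761 to 1.03 for KO-Veh against WT-Veh and 0.912 to 1.25 for KO-Nut3 against KO-Veh, both of which hold 1. *Sox11*, a SoxC factor of newborn neurons, was at 22.2, 21.7 and 22.8 CPM in WT-Veh, 19.3, 21.1 and 20.6 in WT-Nut3, 23.2, 23.4 and 20.6 in KO-Veh and 24.7, 21.1 and 18.5 in KO-Nut3. All WT-Nut3 values of *Sox11* were below the WT-Veh values, by a fold of 0.917 with an interval that holds 1 (0.804 to 1.05).

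*Sox4*, the other SoxC gene, was at 25, 26.1 and 25.9 CPM in WT-Veh and at 29.7, 28.7 and 28.9 in WT-Nut3, and at 29.2, 28.2 and 26.5 in KO-Veh and 26.6, 26.9 and 23.8 in KO-Nut3. Its WT libraries thus separated by treatment by about 3 CPM. An antisense gene covers 54.6% of its exon bases. Without strand, reads in the shared part cannot be assigned to either gene and were left out of the counts, so the level of *Sox4* can be understated. The remaining genes of the group, *Stmn1* and *Tubb3* (tubulin biology), *Dpysl3* (growth cones), *Cd24a* (a surface protein of neuroblasts) and *Elavl4* (an RNA-binding protein of neurons), had a highest value at most 1.93 times the lowest, the widest being *Cd24a*.

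Among the neuronal genes, *Rbfox3* was at 319, 274 and 297 CPM in WT-Veh, 300, 270 and 306 in WT-Nut3, 292, 293 and 283 in KO-Veh and 238, 274 and 289 in KO-Nut3. The groups overlapped, and the lowest value was that of RH6. *Tbr1*, a T-box factor of glutamatergic neurons, was at 57.3, 52.1 and 64.5 CPM in WT-Veh and 66.3, 42.5 and 52.7 in WT-Nut3, and at 50.2, 43.9 and 47.7 in KO-Veh and 43.8, 40.3 and 48.5 in KO-Nut3. All KO libraries were below all WT-Veh libraries, and WT-Nut3 RH9 (42.5 CPM) lay within the KO range. The 5 markers of neocortical layer and subiculum neurons, led by *Fezf2*, summed to 140.0 CPM in WT-Nut3 RH1, the library with the highest *Tbr1*. They summed to 126.7 and 126.0 CPM in WT-Veh RH5 and RH15 and to 132.8 in KO-Nut3 RH6, where *Tbr1* was low. In the others they summed to 104.4 to 113.6 CPM. The part of such cells in the level of *Tbr1* was not tested.

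Of the replication licensing genes, *Mcm2* was at 6.57, 6.04 and 5.56 CPM in WT-Veh, 4.72, 4.72 and 4.54 in WT-Nut3, 5.57, 5.92 and 5.07 in KO-Veh and 5.10, 5.04 and 5.49 in KO-Nut3. WT-Nut3 lay below each of the other groups without overlap. *Mcm3*, *Mcm5*, *Mcm6* and *Mcm7*, other subunits of the helicase, had CVs of 21.1%, 15.1%, 11.9% and 7.59%, and *Pcna*, the sliding clamp of the polymerase, 6.80%. *Mcm4* was at 9.26, 10.8 and 10.8 CPM in WT-Veh and 10.2, 11.2 and 10.8 in WT-Nut3, and at 13.9, 11.8 and 12.6 in KO-Veh and 13.1, 12.5 and 10.3 in KO-Nut3, where 5 of the 6 KO libraries were above all 6 WT libraries.

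Of the mitotic genes, *Mki67*, which encodes the proliferation antigen Ki-67, was at 4.78, 3.99 and 5.25 CPM in WT-Veh, 6.04, 4.57 and 4.77 in WT-Nut3, 5.42, 4.28 and 5.53 in KO-Veh and 2.50, 3.72 and 4.61 in KO-Nut3. The mean of KO-Nut3, 3.61 ± 1.06 CPM (SD, n = 3), was the lowest, and its range overlapped that of KO-Veh. *Top2a*, a topoisomerase needed to separate chromosomes, was at 0.717, 1.21 and 1.49 CPM in WT-Veh, 1.12, 1.79 and 1.40 in WT-Nut3, 0.723, 0.958 and 1.77 in KO-Veh and 0.943, 1.03 and 0.989 in KO-Nut3. These are 12 to 36 counts per library, and the groups overlapped except that KO-Nut3 lay below WT-Nut3. The cyclins *Ccnb1*, *Ccnb2* and *Ccna2*, the kinase *Cdk1*, the survivin gene *Birc5* and *Bub1* had from 26 counts (*Bub1*) to 407 counts (*Ccna2*) over all 12 libraries. For KO-Nut3 against KO-Veh the 95% interval of the fold was 0.283 to 2.59 for *Cdk1*, with 65 counts, and narrower, 0.634 to 1.39, for *Ccna2*.

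Of the G1 genes, *Ccnd2*, the D-type cyclin of adult dentate progenitors that is also expressed in granule neurons, was at 93.3, 104 and 98.5 CPM in WT-Veh, 92.6, 102 and 87.6 in WT-Nut3, 103, 103 and 87.3 in KO-Veh and 71.2, 99.0 and 93.0 in KO-Nut3. The groups overlapped, and RH6 was again the lowest. *Ccnd1*, another D-type cyclin, was at 34.8, 31.3 and 42.7 CPM in WT-Veh and 29.3, 29.7 and 34.4 in WT-Nut3, and at 27.4, 25.8 and 36.1 in KO-Veh and 19.6, 24.2 and 28.2 in KO-Nut3. The group means in this order went from 36.3 ± 5.88 to 24.0 ± 4.30 CPM (SD, n = 3), with overlap between neighbouring groups. A gene on the other strand covers 23.4% of the exon bases of *Ccnd1*. *Cdk2* ranged from 2.22 to 4.31 CPM and *Cdk4* from 31.6 to 38.7 CPM.

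**Figure D2:**
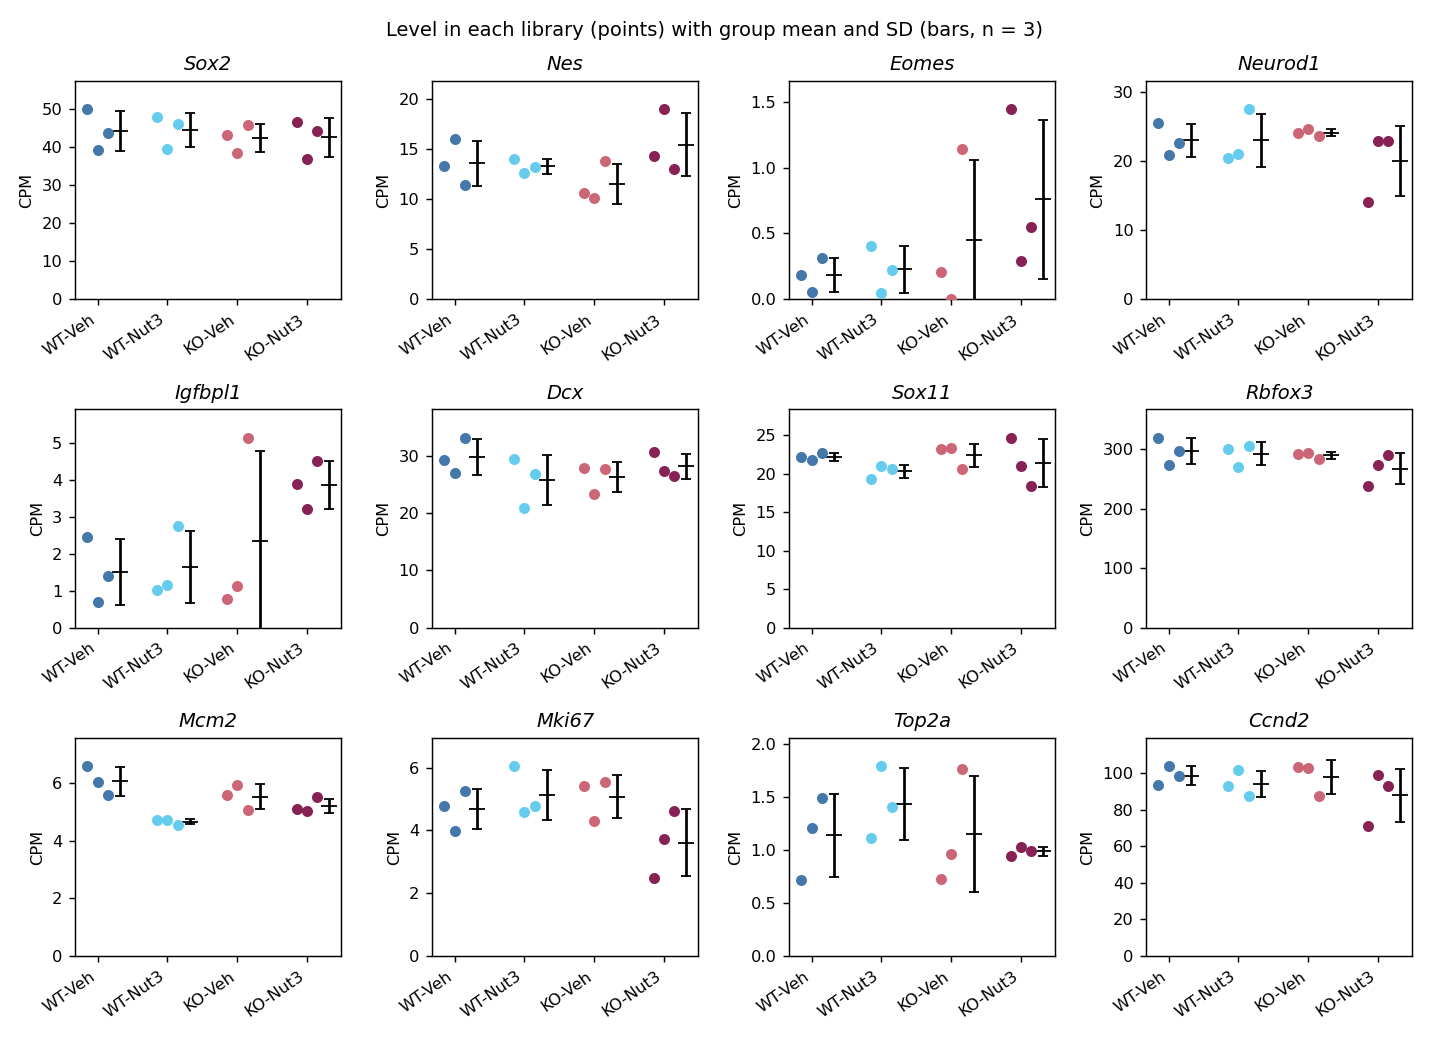
CPM (y axis, from 0) of 12 of the genes in each library (points, by group on the x axis), with the group mean and SD (bars, n = 3 mice). The groups overlap for most genes, WT-Nut3 is lowest for *Mcm2* (4.66 ± 0.102 CPM), and the lowest point of *Neurod1*, *Mki67*, *Ccnd2* and *Rbfox3* is KO-Nut3 RH6.

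The comparison of KO-Veh with WT-Veh asks how the knockout changes these genes in vehicle-treated tissue. None of the 40 passed (smallest adjusted *P* = 0.599, quasi-likelihood test of edgeR with Benjamini-Hochberg adjustment over 22592 genes), where 0.0177% of all genes did, and none passed with DESeq2. At an unadjusted *P* under 0.05 there were 4 of the 40, 2 higher and 2 lower, or 10%, beside 7.2% of all genes. *Tbr1* was lower at 47.3 ± 3.17 CPM in KO-Veh against 58.0 ± 6.21 in WT-Veh (SD, n = 3), a log2 fold change of -0.29 (SE 0.082), and *Ccnd1* at -0.29 (SE 0.131), which was -0.14 without WT-Veh RH15 and -0.44 without KO-Veh RH16. *Mcm4* was higher by 0.31 (SE 0.124), and *Bub1* had 3, 1 and 5 counts in KO-Veh against 0, 1 and 0 in WT-Veh, which is too few to give a fold. The groups did not overlap for 5 of the 40 genes (*Sox4*, *Mcm4*, *Bub1*, *Tubb3* and *Tbr1*), beside 12.4% of all genes, though for *Bub1* a library of each group held 1 count and only the scaling for library size separated them, and the median log2 fold change of the 40 was 0.046 against -0.0043 over all genes.

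The comparison of KO-Nut3 with KO-Veh asks what earlier treatment changed in KO animals. Again none of the 40 passed (smallest adjusted *P* = 0.553, edgeR), where 0.199% of all genes did, nor did any with DESeq2. At an unadjusted *P* under 0.05 were *Neurog2*, lower by a log2 fold change of -1.21 (SE 0.453), and *Nes*, higher by 0.42 (SE 0.174), or 5% of the list beside 7.6% of all genes. Without RH6 the values were -1.13 and 0.47. The value of *Nes* rested in part on KO-Nut3 RH8, without which it was 0.24, and it lay between 0.24 and 0.57 when single libraries were left out. At an unadjusted *P* under 0.05, 4 of 5 endothelial markers and 8 of 9 fibroblast markers were higher in the same comparison. These are 80% and 88.9%, beside 7.6% of all genes. The groups did not overlap for *Mcm7*, *Neurog2* and *Neurod1*, 3 of 40, beside 13.3% of all genes. Of the 3 neuronal genes all had a negative log2 fold change, from -0.22 to -0.10, as did all 6 dentate granule markers and all 5 CA markers, with medians of -0.14 and -0.25. Without RH6 the range of the neuronal genes was -0.09 to -0.04, and the medians were -0.02 for the dentate markers (4 of 6 negative) and -0.07 for the CA markers (4 of 5 negative). When single libraries were left out, the value of *Neurod2* lay between -0.33 and -0.05.

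In WT mice the same comparison, WT-Nut3 against WT-Veh, had 0 of 40 genes and 0% of all genes past the adjusted threshold in edgeR (smallest adjusted *P* of the list 0.998), and 0 in DESeq2. At an unadjusted *P* under 0.05 were *Sox4* (log2 fold change 0.19, SE 0.0745), *Mcm3* (0.53, SE 0.213) and *Mcm2* (-0.37, SE 0.16), 7.5% of the list beside 3.17% of all genes. Within one complex, the MCM helicase, 2 subunits thus had values of opposite sign. The groups did not overlap for 5 of 40 (*Sox4*, *Mcm3*, *Sox11*, *Mcm2* and *Mcm7*), beside 7.52% of all genes.

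Between the treated groups, KO-Nut3 against WT-Nut3, none of the 40 passed in edgeR (smallest adjusted *P* = 0.928), beside 0.00443% of all genes, which is *Fmr1* itself, and none passed in DESeq2. *Neurog2* was lower, at 0.370 ± 0.163 CPM in KO-Nut3 against 1.59 ± 0.414 in WT-Nut3 (SD, n = 3), a log2 fold change of -2.09 (SE 0.404, unadjusted *P* = 0.000596 from edgeR), and only 3 of all genes had a smaller *P*-value. *Igfbpl1* was higher at 3.86 ± 0.648 against 1.63 ± 0.966 CPM (log2 fold change 1.24, SE 0.368), and *Ccnd1* lower (-0.38, SE 0.133, and -0.25 without RH6). These 3 genes were the only ones of the 40 at an unadjusted *P* under 0.05 in this comparison, 7.5% beside 4.87% of all genes. The groups did not overlap for 8 of 40 (*Igfbpl1*, *Mcm2*, *Mcm7* and *Cdk2* higher, *Neurog2*, *Sox4*, *Top2a* and *Ccnd1* lower), beside 10.7% of all genes. This comparison and the one within KO share the KO-Nut3 libraries.

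Over all 12 libraries, KO against WT was fitted with treatment in the model. It gave 0 of 40 genes past the threshold in edgeR (smallest adjusted *P* = 0.417) beside 0.00443% of all genes. DESeq2 gave 0 as well, but left most of the 40 without an adjusted *P*, and so could not call them. In edgeR 7 genes were at an unadjusted *P* under 0.05, 17.5% of the list beside 8.16% of all genes. *Neurog2* (log2 fold change -1.29, SE 0.321), *Tbr1* (-0.29, SE 0.0896) and *Ccnd1* (-0.33, SE 0.104) were lower, and *Mcm4* (0.23, SE 0.0863), *Igfbpl1* (0.96, SE 0.423), *Eomes* (1.52, SE 0.699) and *Cd24a* (0.27, SE 0.125) were higher. Without KO-Veh RH16 the values of *Igfbpl1* and *Eomes* were 0.53 and 0.96. All 7 licensing genes had a positive value, from 0.01 to 0.23, as did 51.9% of all genes, and 5 of the 7 did in KO-Veh against WT-Veh and in KO-Nut3 against WT-Nut3 alike. No gene of the 40 separated the 6 KO from the 6 WT libraries without overlap, beside 0.536% of all genes. The same libraries compared by treatment, Nutlin-3 against vehicle, gave 0 of 40 in edgeR (smallest adjusted *P* = 0.599) beside 0% of all genes, 0 in DESeq2, and *Ccnd1* (-0.26, SE 0.104) and *Mcm2* (-0.23, SE 0.101) at an unadjusted *P* under 0.05, 5% beside 7.29%. Here too none separated the groups, beside 0.243% of all genes.

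The interaction of genotype and treatment asks if KO and WT mice responded unlike to Nutlin-3. None of the 40 passed in edgeR (smallest adjusted *P* = 0.994) beside 0% of all genes, and none passed in DESeq2. At an unadjusted *P* under 0.05 were *Sox4* (-0.30 on the log2 scale, SE 0.103), which had its highest group mean in WT-Nut3 (29.1 ± 0.540 CPM, SD, n = 3), and *Neurog2* (-1.46, SE 0.552), 5% of the list beside 4.17% of all genes. The interval of the *Dcx* interaction was 0.958 to 1.60 as a ratio of folds, and that of *Mki67* 0.412 to 1.02.

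**Figure D3:**
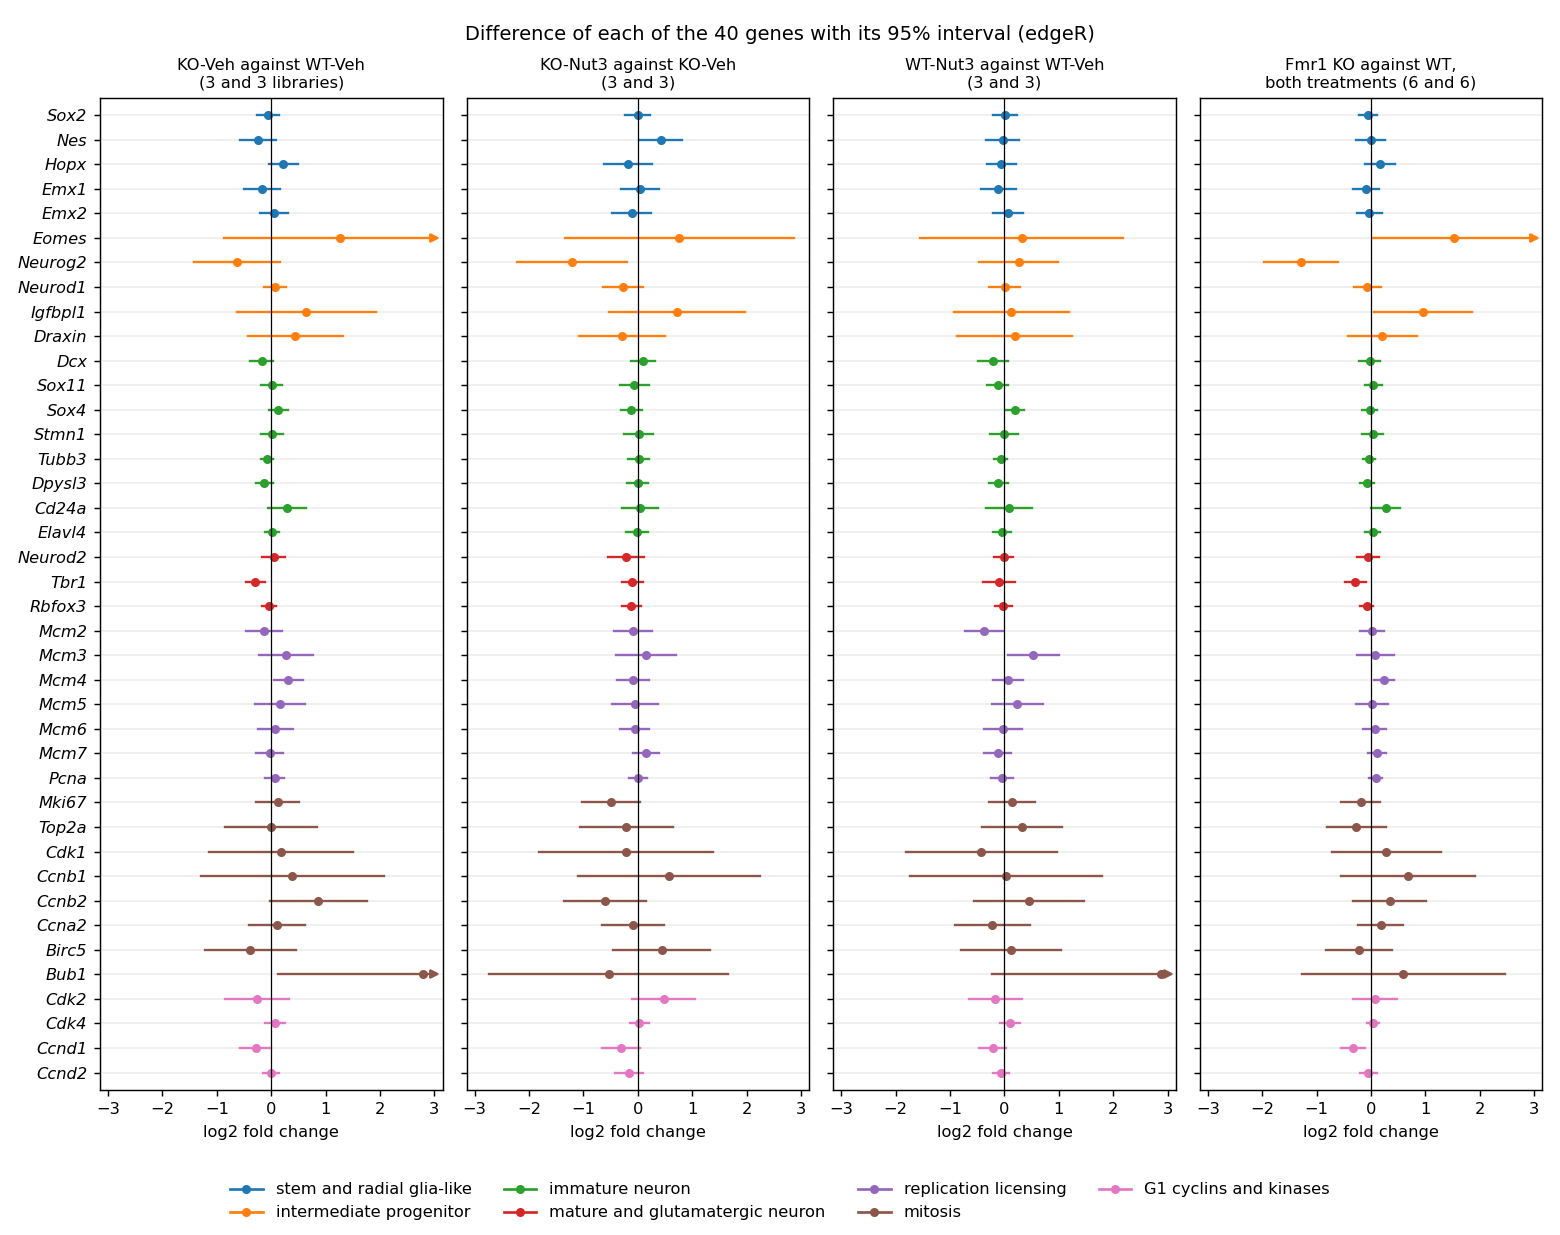
Log2 fold change (x axis) of each of the 40 genes (rows, coloured by role) with its 95% interval from edgeR in 4 comparisons, with intervals beyond 3 cut at an arrow. Intervals are narrow for genes of immature and mature neurons and wide for *Eomes*, *Cdk1*, *Ccnb1* and *Bub1*, and *Neurog2* lies below 0 in the KO against WT panel (-1.29).

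*Neurog2* (ENSMUSG00000027967, chr3:127633135-127635631 on the plus strand, GRCm38), a proneural bHLH factor of intermediate progenitors, had the smallest *P*-value of the list in 3 of the 7 comparisons. It was at 1.19, 1.89 and 0.927 CPM in WT-Veh and at 1.78, 1.89 and 1.12 in WT-Nut3, then at 0.619, 0.958 and 1.03 in KO-Veh and 0.333, 0.229 and 0.549 in KO-Nut3. The 3 KO-Nut3 libraries, with 4 to 10 counts, were the lowest of the 12, and KO-Veh, with 12 to 18 counts, overlapped with WT only through WT-Veh RH15. In KO against WT the log2 fold change lay between -1.46 and -1.11 when single libraries were left out, and it was -1.16 without RH6 and -1.32 with the *Ttr* level as a term. Among the settings tried, it passed the threshold only when all 35930 genes with at least 1 count entered the fit (adjusted *P* = 0.00836, edgeR), as *Tbr1*, *Ccnd1* and *Igfbpl1* then did, among 239 genes in all.

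*Igfbpl1* (chr4:45809468-45826923 on the minus strand) was at 2.45, 0.683 and 1.39 CPM in WT-Veh, 1.01, 1.14 and 2.75 in WT-Nut3, 0.774, 1.13 and 5.13 in KO-Veh and 3.88, 3.21 and 4.50 in KO-Nut3. The 4 highest libraries were thus KO-Veh RH16 and all of KO-Nut3. The highest *Eomes* values were in 3 of these same libraries, RH16, RH6 and RH13, and *Neurog2* did not follow them.

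In those 4 libraries markers of other cells were high as well. The 7 ependyma markers, led by *Foxj1*, a regulator of motile cilia, summed to 51.56 CPM in KO-Veh RH16 and to 55.96, 46.97 and 57.77 in KO-Nut3 RH6, RH8 and RH13, against 16.9 to 44.91 in the other 8, with none at 0. In KO against WT over both treatments 6 of the 7 were higher at an unadjusted *P* under 0.05 (85.7% beside 8.16% of all genes, median log2 fold change 0.65), as were 5 of 7 in KO-Veh against WT-Veh (71.4% beside 7.2%), and none passed the adjusted threshold in either comparison in edgeR or DESeq2. By treatment, Nutlin-3 against vehicle, 5 of 7 were higher too (71.4% beside 7.29%). None passed the adjusted threshold in edgeR, beside 0% of all genes. In DESeq2 1 passed, among 79 calls in all. At an unadjusted *P* under 0.05, 4 of 7 were higher within WT (57.1% beside 3.17%) and 3 of 7 within KO (42.9% beside 7.6%). In KO against WT 2 of the 5 thalamus markers and 2 of the 6 neuroblast markers named next were higher at that *P* as well. These are 40% and 33.3%, beside 8.16% of all genes. The factor *Zic1*, one of the 5 thalamus markers, was at 51.1, 76.8, 48.8 and 29.2 CPM against 8.51 to 21.0, and *Sp8*, one of 6 markers of neuroblasts of the subventricular zone, at 5.98, 4.99, 3.04 and 2.97 CPM against 1.05 to 2.13, these 2 genes being chosen after their values were seen. The neuroblast list as a whole, led by *Dlx1*, summed to 97.64, 71.43, 88.04 and 85.72 CPM against 74.91 to 85.74. The thalamus list summed to 143.6, 238.9, 143.4 and 111 CPM against 80.96 to 99.53. Without *Zic1* the other 4 thalamus markers summed to 92.52, 162.2, 94.57 and 81.83 CPM against 70.5 to 80.44, and *Tcf7l2*, a factor of thalamic neurons, was at 6.04, 32.7, 7.33 and 4.89 CPM against 4.75 to 6.91. RH6 was far above the others in both, and RH13 was close to them. The part of such cells in the levels of *Igfbpl1* and *Eomes* was not tested.

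**Figure D4:**
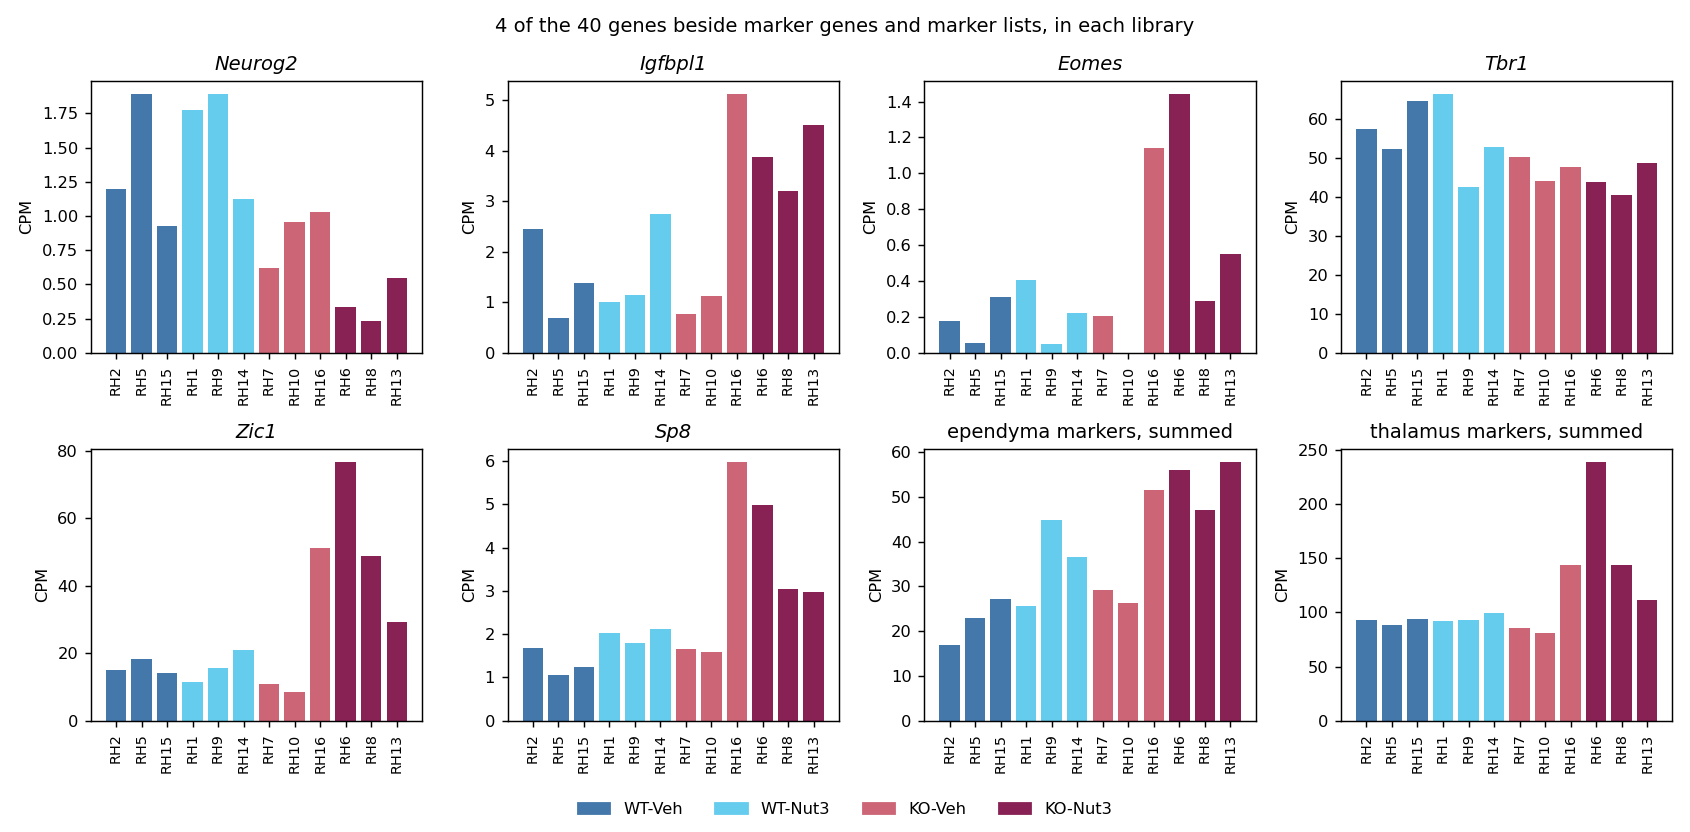
CPM (y axis, from 0) in each of the 12 libraries (bars, by animal number, coloured by group) of *Neurog2*, *Igfbpl1*, *Eomes* and *Tbr1*, of *Zic1* and *Sp8*, and of the summed ependyma and thalamus markers. *Igfbpl1*, *Zic1*, *Sp8* and both lists are highest in KO-Veh RH16 and KO-Nut3 RH6, RH8 and RH13, while *Neurog2* is lowest in the 3 KO-Nut3 libraries (0.229 to 0.549 CPM).

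Further genes of the same processes were counted from 3 lists. Of 30 other adult neurogenesis genes (a list that also holds *Tbr1*), led by *Tcf4*, none passed in any of the 7 comparisons in edgeR or in DESeq2. At an unadjusted *P* under 0.05 were 1 higher and 3 lower in KO-Veh against WT-Veh, and 4 higher and 0 lower in KO-Nut3 against KO-Veh, with medians of 0.017 and -0.035 on the log2 scale. Either count is 13.3% of the list, beside 7.2% and 7.6% of all genes.

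Of 30 other cell cycle genes, led by the cyclin *Ccnd3*, none passed in any of the 7 comparisons in either tool, and at an unadjusted *P* under 0.05 there were 0 in KO-Veh against WT-Veh (0% beside 7.2% of all genes) and 2 higher and 1 lower in KO-Nut3 against KO-Veh (10% beside 7.6%). Of 13 cell cycle inhibitors and genes of the MDM2 and p53 axis, led by *Mdm4*, none passed in edgeR, and 1 passed in DESeq2 in KO-Nut3 against KO-Veh, where 1.35% of the genes with an adjusted *P* did. It was *Cdkn1c*, an inhibitor of cyclin-dependent kinases, named after its values were seen. It was at 0.717, 1.16 and 1.29 CPM in WT-Veh and 0.811, 4.82 and 0.785 in WT-Nut3, and at 2.12, 1.3 and 0.570 in KO-Veh and 4.82, 3.09 and 6.64 in KO-Nut3. All KO-Nut3 values were above all KO-Veh values (log2 fold change 1.85, SE 0.415, adjusted *P* = 0.161 with edgeR and 0.00112 with DESeq2). The 4 highest libraries, WT-Nut3 RH9 and KO-Nut3 RH6, RH8 and RH13, were those with high choroid plexus markers, and the part of that tissue in *Cdkn1c* was not tested. *Mdm2*, the target of Nutlin-3 and a p53 target gene, was at 52.4, 54.7 and 57.9 CPM in WT-Veh and 55.2, 65.6 and 61.2 in WT-Nut3, and at 62.6, 62.3 and 52.0 in KO-Veh and 60.4, 60.3 and 62.2 in KO-Nut3. The interval of its fold between Nutlin-3 and vehicle over both genotypes was 0.983 to 1.16. For *Cdkn1a*, the p21 gene and a p53 target, it was 0.755 to 1.31. Both were named outside the rule, for their place in the pathway of the drug.

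Markers of other cell types that can divide or that carry some of these genes were measured in the same libraries. The 6 astrocyte markers, led by *Aldoc*, summed to 1858 to 2352 CPM. At an unadjusted *P* under 0.05, 2 of the 6 were higher in KO-Veh against WT-Veh (33.3% beside 7.2% of all genes). In KO against WT over both treatments 2 of the 6 were higher as well (33.3% beside 8.16%). None passed in edgeR, and 1 passed in DESeq2 in each, among 22 and 43 calls in all. The 7 markers of oligodendrocyte precursors, the main dividing glia of adult brain, led by *Pdgfra*, summed to 191.1 to 239.7 CPM over the 12 libraries, and the 5 microglia markers, led by *Csf1r*, to 197.3 to 257.9 CPM. Neither list had a marker at 0. All 7 precursor markers had a negative log2 fold change in KO-Veh against WT-Veh, 2 of them at an unadjusted *P* under 0.05 (28.6% beside 7.2% of all genes). In KO-Nut3 against KO-Veh 5 of 7 had a positive one, and *Bmp4*, a secreted growth factor of committed precursors that fibroblasts and other cells also make, was at 1.32 (adjusted *P* = 0.128 with edgeR and 0.016 with DESeq2). The 5 endothelial markers, led by *Flt1* and with none at 0, summed to 179.3, 178.1 and 193.8 CPM in KO-Veh and 213.6, 219.4 and 228.8 in KO-Nut3, without overlap, and to 180.5 to 223.3 in the WT libraries. In KO-Nut3 against KO-Veh 4 of the 5 were higher at an unadjusted *P* under 0.05, or 80% beside 7.6% of all genes (median log2 fold change 0.25, and 0.18 without RH8), and none passed the adjusted threshold in edgeR or DESeq2. Fibroblast markers, 9 genes led by *Dcn*, were highest in KO-Nut3 RH8 (231.9 CPM), the library with the highest *Nes*, and in WT-Veh RH5 (175.2 CPM), the one with the next highest, against 47.78 to 111.6 CPM in the others. In KO-Nut3 against KO-Veh 8 of the 9 were higher at an unadjusted *P* under 0.05, or 88.9% beside 7.6% of all genes. The median log2 fold change was 1.37, and 0.78 without RH8. Of the list 1 passed the adjusted threshold in edgeR, beside 0.199% of all genes. In DESeq2 4 passed, beside 1.35% of the genes with an adjusted *P*. In WT-Nut3 against WT-Veh 8 of the 9 fibroblast markers had a negative log2 fold change (median -0.62). In KO-Veh against WT-Veh 8 of the 9 did as well (median -0.59). There 3 of the 5 endothelial markers were lower at an unadjusted *P* under 0.05, or 60% beside 7.2% of all genes. The part of endothelial cells and fibroblasts in the levels of *Nes* was not tested.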

How the data were processed

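Poly(A) RNA of hippocampus was sequenced in 12 libraries. Per the labels and methods, the authors mapped the reads to mm10 with STAR and deposited raw, not normalized counts per gene. The unstranded column served here, since each strand held close to equal shares. Reads mapped to several places (3.07% to 3.55% per library) and, without strand, reads shared by overlapping genes were not counted on any gene. This affects members with copies or antisense partners, and 13 of the 40 share exon bases with another gene of GENCODE M21. The labels name a single-read layout, the methods a paired-end one. A table of the whole series was not used.

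Genes with more than 20 counts in total were tested with edgeR 4.0.16, by its quasi-likelihood test, two-sided (R 4.3.3, TMM factors), pairs of groups on their own 6 libraries, and genotype, treatment and their interaction on all 12, with Benjamini-Hochberg adjusted *P*-values under 0.05. The SE is the log2 fold change divided by the square root of *F*. The fits were run on simulated counts with the same dispersion for all genes and changes only in genes with higher counts. The recovery of changes in rarely read genes was therefore not tested. RPKM used the exon lengths of GENCODE M21. Replicates of a group differed by more than counting error (chi-square per degree of freedom of 5.94 or more).

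Alternatives were DESeq2 1.42.0, its size factors, other filters, a robust fit, one fit of all libraries, and leaving out each library. Further ones were a term for *Ttr* and a term that split the animals into low and high numbers, a split that the labels do not name. Genes named are all 40, with values in every library for 12 fixed ones and, in each comparison, those that passed or up to 3 per direction with the smallest unadjusted *P*. The members and lists were chosen with earlier results of these data known.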

Additional observations from a re-analysis of the deposited data

How the results depend on the processing

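In 113 repeats of the 7 comparisons under other settings, the number of the 40 genes past the threshold stayed at 0 in all but 4. These 4 came from the fit of all 35930 genes with at least 1 count in edgeR, which called 1 gene in KO-Veh against WT-Veh (*Tbr1*), 1 in KO-Nut3 against WT-Nut3 (*Neurog2*), 4 in KO against WT over both treatments (*Neurog2*, *Tbr1*, *Ccnd1* and *Igfbpl1*) and 1 in Nutlin-3 against vehicle (*Ccnd1*), and 0 in the other 3 comparisons. The same fit called 272, 38, 239 and 539 genes in all in those 4 comparisons, where the fit of genes with more than 20 counts called 4, 1, 1 and 0, and the cause was not tested. With DESeq2 the whole table had 22 calls in KO-Veh against WT-Veh, 245 in KO-Nut3 against KO-Veh (45 in edgeR), 7 in KO-Nut3 against WT-Nut3, 43 in KO against WT and 79 in Nutlin-3 against vehicle, with 0 of the 40 genes among them, and in KO against WT it gave an adjusted *P* to 17 of the 40 only. With filterByExpr 36 of the 40 genes were tested. With each library left out in turn the count stayed at 0 in each comparison. None of 356 repeated values changed sign. These were of genes picked in each comparison for a small unadjusted *P*, a choice that favours a stable sign. Signs over the whole list were less stable. In KO-Nut3 against KO-Veh, 15 to 18 of the 40 had a positive log2 fold change when single libraries were left out. The log2 fold change of *Eomes* in KO against WT was 1.08 without KO-Nut3 RH6 and 0.96 without KO-Veh RH16, in place of 1.52. No paired analysis was possible because the animal numbers are not shared between groups. Depth limits the rarely read mitotic genes, of which *Bub1* and *Cdk1* had 26 and 65 counts over all libraries. *Eomes* had 88 counts, and its CV of 111% was also above the 36.9% of counting alone.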
